A study of Mus musculus with 24 samples.

Results

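The levels of 10 genes were examined in the dorsal hippocampus of mice: the MHC class I heavy chain genes H2-K1, H2-D1, H2-Q4, H2-Q6, H2-Q7, H2-T22 and H2-T23, the class I light chain gene B2m, and the interferon-inducible genes Ifi27 and Ifi27l2a. They were taken as a list of symbols, chosen with earlier results of these data known, and all 10 were found among the 51826 genes counted. H2-Q7 and Ifi27l2a were on the list because they differed between genotypes after learning, so their values in that comparison, and in every comparison that reuses those libraries, are given as a description with no test. CBP is a transcriptional co-activator, and KIX is the domain through which it binds phosphorylated CREB and c-Myb. CBP KIX/KIX mice are homozygous for a knock-in of 3 point mutations that block this binding, and they were compared with WT littermates. All animals were male C57BL/6J mice aged 2 to 4 months, and the knock-in is constitutive, so every cell of the tissue carries it. RNA-Seq 1 held 3 libraries of WT homecage mice and, after 3 days of Morris water maze (MWM) training, a spatial task, 3 of WT and 3 of KIX mice. RNA-Seq 2 held 3 libraries of WT and 4 of KIX homecage mice and, after contextual fear conditioning (CFC), a single pairing of a context with a foot shock, 4 of WT and 4 of KIX mice. Tissue was taken 1 h after training. RNA-Seq 1 used ribosomal RNA depletion and 150-base reads and RNA-Seq 2 used poly-A selection and 100-base reads, so that task, library type and run cannot be told apart, and KIX homecage mice were measured only in RNA-Seq 2.

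MHC class I molecules present peptides from inside the cell on its surface. A heavy chain pairs with beta-2 microglobulin, the product of B2m, after the TAP transporter and the loading complex have supplied the peptide. H2-K1 and H2-D1 are the classical heavy chains, the H2-Q and H2-T genes are non-classical, and H2-Q6 and H2-Q7 belong to the Qa-2 group. H2-T23 encodes Qa-1, which is recognised by receptors of natural killer cells, and H2-T22 is a ligand of some gamma-delta T cell receptors. Interferons raise the whole pathway, and Ifi27 and Ifi27l2a encode small hydrophobic proteins of the same interferon response. In the hippocampus, class I molecules are known on blood vessels, microglia and neurons, where they have been linked to synaptic plasticity.

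The 7 heavy chain genes lie on mouse chromosome 17. In GENCODE M21 (GRCm38), H2-K1 spans chr17:33996017-34000347, H2-D1 chr17:35262730-35267499, H2-Q4 chr17:35379617-35385290, H2-Q6 chr17:35424850-35430055, H2-Q7 chr17:35439155-35443773, H2-T23 chr17:36029773-36032855 and H2-T22 chr17:36037128-36042747. B2m lies apart at chr2:122147686-122153083. Ifi27 (chr12:103434211-103440239) and Ifi27l2a (chr12:103442167-103443680) are neighbours on opposite strands.

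Class I promoters are known to carry an enhancer A site bound by NF-kappaB, an interferon-stimulated response element bound by IRF proteins, and a conserved module whose X2 box is bound by CREB and ATF proteins and whose Y box is a reversed CCAAT box. Phosphorylated CREB is among the proteins whose binding to the KIX domain is blocked by the mutations. The promoter stretches of H2-K1, H2-D1, H2-Q4, H2-Q6 and H2-Q7, from enhancer A to the Y box, are shown because they hold these elements side by side in the family that contains H2-Q7. They are RefSeq sequences of GRCm38.p6, written from 5′ to 3′ on the strand of the gene. Capitals mark every match to enhancer A (GGG, any 2 bases, TTCCC), the response element (GAANNGAAA, here on the opposite strand), the CRE core (TGACG) and the CCAAT box (CCAAT, here on the opposite strand):
H2-K1, chr17:34000359-34000458, minus strand: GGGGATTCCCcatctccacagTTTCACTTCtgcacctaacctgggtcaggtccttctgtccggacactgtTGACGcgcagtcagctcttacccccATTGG
H2-D1, chr17:35262923-35263022, plus strand: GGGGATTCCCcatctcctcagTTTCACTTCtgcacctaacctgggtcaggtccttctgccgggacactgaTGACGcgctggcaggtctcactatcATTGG
H2-Q4, chr17:35379444-35379542, plus strand: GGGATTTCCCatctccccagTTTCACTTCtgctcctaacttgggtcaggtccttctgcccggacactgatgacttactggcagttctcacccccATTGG
H2-Q6, chr17:35424677-35424775, plus strand: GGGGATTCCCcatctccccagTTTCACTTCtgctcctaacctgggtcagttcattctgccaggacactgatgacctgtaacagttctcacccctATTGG
H2-Q7, chr17:35439022-35439119, plus strand: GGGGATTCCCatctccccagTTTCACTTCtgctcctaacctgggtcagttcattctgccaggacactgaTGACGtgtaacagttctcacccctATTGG

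All 5 stretches held enhancer A and the response element. The CRE core stood between the response element and the Y box in H2-K1, H2-D1 and H2-Q7, and these letters were not at that place in H2-Q4 and H2-Q6. Promoter windows of 300 bases, from 250 before to 50 after the start, were given for 8 of the 10 members. In these windows, searched on both strands, enhancer A and the response element matched in the same 5 genes, the CRE core in 6 (H2-K1, H2-D1, H2-Q4, H2-Q7, H2-T22 and B2m), the CCAAT box in all 8, and the full CRE (TGACGTCA, which contains the core) in 0. Over all 32851 windows, enhancer A matched in 1.75%, the response element in 7.52%, the CRE core in 20.8%, the CCAAT box in 37.4% and the full CRE in 1.79%. Such a match describes letters and does not show that a protein binds there.

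**Figure D1:**
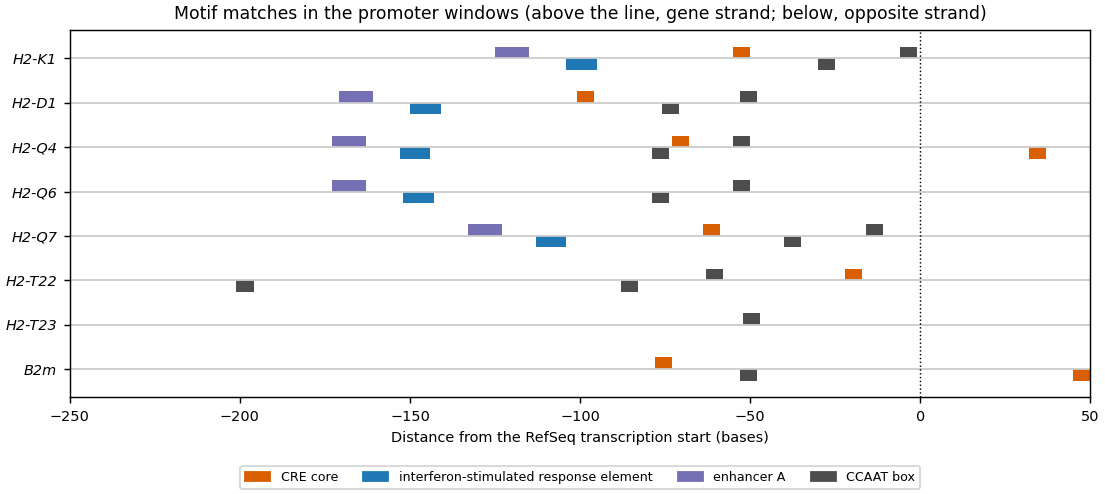
Position of motif matches in the promoter windows of the 8 members with a RefSeq window, in bases from the transcription start (x axis), one line per gene. Boxes above a line are matches on the strand of the gene and boxes below it on the opposite strand. Enhancer A and the response element are drawn for 5 of the 8 genes, and H2-T23 has a CCAAT box alone.

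The libraries held between 15385836 and 65709282 counted reads, 38174044 to 65709282 in RNA-Seq 1 and 15385836 to 46056290 in RNA-Seq 2. Levels are given as CPM, the usual unit of counts scaled to a common library size, here after upper-quartile scaling over all 24 libraries, and the lowest count of any member in any library was 7. A count of 3 would correspond to at most 0.175 CPM, a limit that covers counting error only. Crebbp, the gene of CBP, lay between 165 and 255 CPM in RNA-Seq 1 and between 58.9 and 70 CPM in RNA-Seq 2, and since the mutations are point changes this does not check the genotype labels. All 7 neuron markers had reads in every library, with a summed level of 4480 to 6270 CPM. The summed level of 8 choroid plexus markers, none of which was at 0 in any library, ran from 27.8 to 4170 CPM and was high in some libraries of every group. In RNA-Seq 2, WT homecage replicate 2 stood apart from the other WT homecage libraries. Its summed level was 1660 CPM for choroid plexus markers against 27.8 and 28.9, 287 CPM for 6 leptomeningeal fibroblast markers against 85.7 and 79.3, 9.51 CPM for 5 perivascular macrophage markers against 2.88 and 3.84, and 38.8 CPM for 7 class II genes against 16.5 and 16.9. The homecage and learning comparisons and the interactions of H2-Q6, H2-Q7 and Ifi27l2a, which include this library, are given with and without it. In bulk tissue, fewer cells of a type and less RNA per cell cannot be told apart.

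Per kilobase of exon, B2m had the highest level of the 10 genes in every group. In RNA-Seq 1 it ran from 33.8 ± 1.07 CPM per kb (SD, n = 3) in WT MWM to 42.4 ± 8.35 (SD, n = 3) in KIX MWM mice. In RNA-Seq 2 it ran from 62.8 ± 1.96 (SD, n = 4) in WT CFC to 71 ± 6.12 (SD, n = 4) in KIX homecage mice. Ifi27 followed, with 21.7 ± 1.19 (SD, n = 3) in WT MWM mice of RNA-Seq 1 and 26.9 ± 6.4 (SD, n = 4) in KIX CFC mice of RNA-Seq 2. The experiments differ in library type, so a range over all 7 groups does not compare conditions. H2-D1 (11.8 to 17.5 CPM per kb over the 7 group means) lay above H2-K1 (7.91 to 10.6), and H2-T22 (3.47 to 4.74) lay above H2-T23 (2.42 to 2.98). The Qa-2 genes were far lower, with 0.106 to 0.859 CPM per kb for H2-Q6 and 0.0422 to 0.323 for H2-Q7, and H2-Q4 lay between 0.573 and 1.63. Ifi27l2a, which has a short transcript, lay between 0.644 and 2.24 CPM per kb. Reads can be assigned with unequal certainty: in the GENCODE M21 transcripts, windows of 100 bases found in no other gene made up 99% of H2-K1, 96.4% of H2-D1, 96.8% of H2-T23 and all of B2m, Ifi27 and Ifi27l2a. They made up 88% of H2-Q7, 87% of H2-Q6, 85.9% of H2-Q4 and 68.5% of H2-T22. With windows of 150 bases, the read length of RNA-Seq 1, these 4 shares were 94.1%, 94%, 90.1% and 77.7%. H2-Q6 shared 8.36% of its 100-base and 5.99% of its 150-base windows with H2-Q7, so part of the counts of this pair may be exchanged. Of 100-base windows, H2-T22 shared 24% with its antisense neighbour A930015D03Rik and H2-Q4 shared 11.8% with antisense Gm11131. A930015D03Rik reached at most 1.09 CPM and Gm11131 at most 0.369 CPM, below every value of H2-T22 and H2-Q4.

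**Figure D2:**
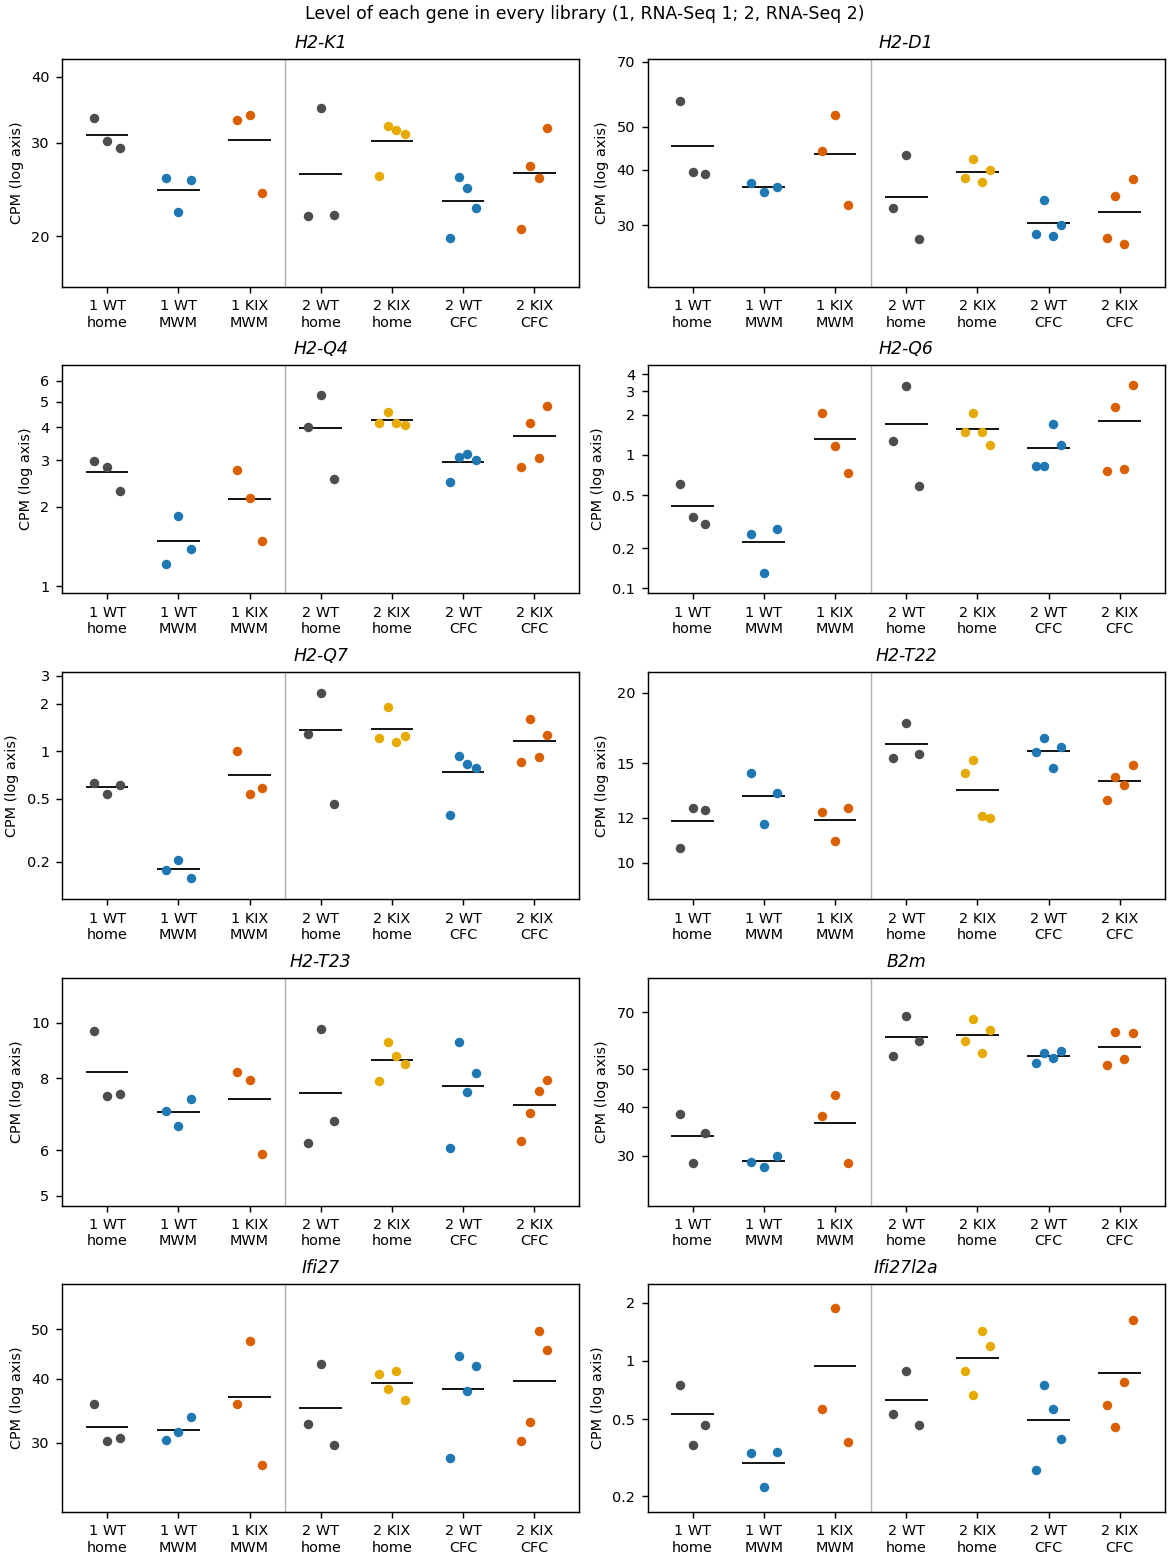
Level of each of the 10 genes in every library, in CPM on a log axis, by group (1, RNA-Seq 1; 2, RNA-Seq 2; home, homecage). Points are libraries and bars are group means. In RNA-Seq 1 the 3 WT MWM libraries of H2-Q7 (0.159 to 0.204 CPM) lie below all other libraries of the experiment.

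The comparison of genotypes in the homecage asks what the mutation does without training, and its KIX libraries had no part in choosing H2-Q7 and Ifi27l2a. None of the 10 genes passed an adjusted p of 0.05 (edgeR quasi-likelihood test, 3 WT against 4 KIX libraries), where 0.0107% of the 18682 genes tested passed. Of the 10, 7 were nominally higher and 3 lower in KIX mice, with a median log2 difference of 0.11 against -0.0023 over all genes tested. At an unadjusted p of 0.05, 1 member (H2-T22, lower) passed, beside 6.12% of all genes, 2.97% higher and 3.16% lower.

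H2-Q7 lay at 1.28, 2.33 and 0.465 CPM in WT homecage mice and at 1.22, 1.9, 1.14 and 1.25 CPM in KIX homecage mice. The 4 KIX libraries lay inside the range of the 3 WT libraries. Its log2 difference was -0.04 ± 0.41 (SE, adjusted p = 0.996) and a wide 95% interval, -0.98 to 0.90. H2-Q6 lay at 1.28, 3.28 and 0.582 CPM in WT and at 1.49, 2.05, 1.47 and 1.19 CPM in KIX homecage mice, again within the WT range, with a log2 difference of -0.20 ± 0.46 (SE, adjusted p = 0.963).

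Ifi27l2a lay at 0.532, 0.892 and 0.465 CPM in WT and at 0.882, 0.665, 1.42 and 1.19 CPM in KIX homecage mice. All 4 KIX libraries were above the WT mean, and 2 of them were above every WT library. Its log2 difference, 0.60 ± 0.34 (SE, 95% interval -0.16 to 1.37), had the largest size among the members and did not pass the test (adjusted p = 0.816). Ifi27 lay at 32.6, 42.8 and 29.7 CPM in WT and at 40.9, 38.2, 41.4 and 36.3 CPM in KIX homecage mice, where the log2 difference was 0.15 ± 0.12 (SE, adjusted p = 0.866).

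The classical chains showed overlapping groups. H2-K1 lay at 21.8, 35 and 21.9 CPM in WT and at 26, 32.3, 31.7 and 31.2 CPM in KIX homecage mice (log2 difference 0.19 ± 0.17, SE, adjusted p = 0.88). H2-D1 lay at 32.8, 43.3 and 28 CPM against 38.4, 42.3, 37.6 and 40 CPM (0.18 ± 0.13, SE, adjusted p = 0.855). B2m lay at 53.9, 68.3 and 59.2 CPM against 58.9, 67.2, 55 and 63.1 CPM (0.01 ± 0.10, SE, adjusted p = 0.992). In each of these genes the highest WT value came from replicate 2.

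Among the non-classical chains, H2-T22 was the member whose groups did not overlap in the homecage. It lay at 15.3, 17.7 and 15.6 CPM in WT and at 14.4, 15.2, 12.1 and 12 CPM in KIX mice, so that every KIX library was below every WT library. Such a gap in the lower direction occurred in 3.52% of genes, and one in the higher direction in 2.94% of genes and in 0 members. The log2 difference was -0.27 ± 0.11 (SE, 95% interval -0.52 to -0.01) with an adjusted p of 0.798. H2-T23 lay at 6.16, 9.73 and 6.75 CPM in WT and at 7.91, 9.25, 8.76 and 8.46 CPM in KIX mice (0.18 ± 0.16, SE, adjusted p = 0.886), and H2-Q4 at 4.01, 5.31 and 2.56 CPM against 4.16, 4.58, 4.14 and 4.09 CPM (0.07 ± 0.22, SE, adjusted p = 0.974).

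Single libraries changed the size and for some genes the sign of these differences. Without WT homecage replicate 3 the log2 difference was -0.13 for H2-Q4, -0.53 for H2-Q6, -0.36 for H2-Q7, 0.0576 for H2-D1 and 0.0565 for Ifi27. That of H2-Q7 also changed sign, to between 0.0029 and 0.0325, without KIX homecage replicate 1, 3 or 4, and that of B2m, to -0.066 and -0.0412, without WT homecage replicate 1 or KIX homecage replicate 2. Without WT homecage replicate 2, 9 of the 10 genes were nominally higher in KIX homecage mice. The log2 difference became 0.58 ± 0.40 (SE) for H2-Q7, 0.68 ± 0.35 for H2-Q6 and 0.98 ± 0.39 for Ifi27l2a. It became 0.48 ± 0.11 for H2-K1, 0.38 ± 0.09 for H2-D1, 0.35 ± 0.20 for H2-Q4, 0.43 ± 0.12 for H2-T23, 0.12 ± 0.09 for B2m, 0.34 ± 0.09 for Ifi27 and -0.19 ± 0.13 for H2-T22. None passed in that fit either (adjusted p between 0.903 and 0.92), nor did any other gene, and 966 genes had an unadjusted p under 0.05. This library carried the raised choroid plexus, fibroblast, macrophage and class II levels given above, and their part in the result was not tested.

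**Figure D3:**
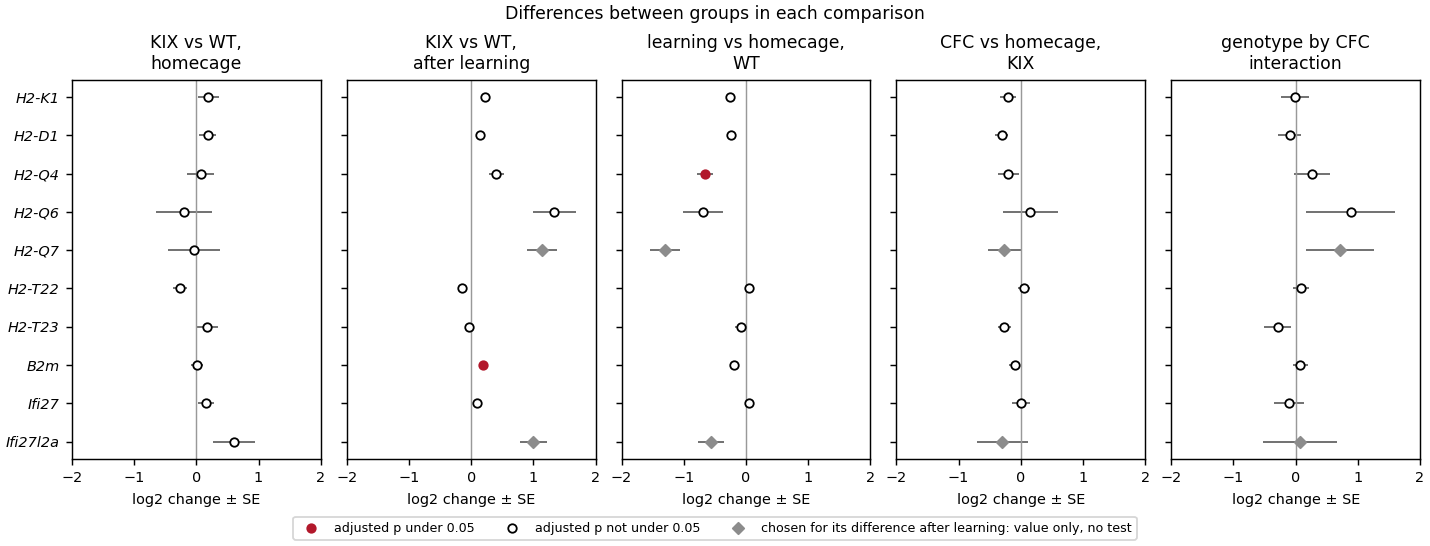
Log2 difference ± SE (x axis) of each gene in the 5 comparisons. Filled red circles have an adjusted p under 0.05, open circles do not, and grey diamonds mark H2-Q7 and Ifi27l2a where they are given without a test. In the homecage panel all 10 genes are open circles, B2m is the red circle after learning, and H2-Q4 is the red circle for learning in WT.

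After learning, the libraries of both tasks were fitted together, with the experiment and 4 factors of unwanted variation (RUVr, estimated from the residuals of a first fit) as covariates. The study used the same number of factors after a GC-content normalization that is not part of this fit. Here 2.42% of 21489 genes passed, 0.982% with higher and 1.44% with lower counts in KIX mice, and 17.8% had an unadjusted p under 0.05. H2-Q7 and Ifi27l2a were chosen from it. Of the 8 other members, 1 passed, B2m, with a log2 difference of 0.18 ± 0.04 (SE, adjusted p = 0.0402), a rise of 1.14-fold. Over the 10 members, 8 were nominally higher and 2 lower in KIX mice, where 10235 of all 21489 genes were higher. The median log2 difference of the members was 0.21 against -0.01 over all genes tested. H2-Q7 and Ifi27l2a are among the higher ones by choice, so these tallies are a description.

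H2-Q7 lay at 0.177, 0.204 and 0.159 CPM in WT MWM mice and at 1.01, 0.535 and 0.584 CPM in KIX MWM mice. In CFC mice it lay at 0.394, 0.932, 0.827 and 0.788 CPM in WT and at 0.857, 1.6, 0.926 and 1.27 CPM in KIX. The groups did not overlap after MWM training and overlapped after CFC, where 1 WT library lay above 2 KIX libraries. The fitted log2 difference was 1.15 ± 0.24 (SE), or 2.21-fold, and it was 1.98 ± 0.38 within RNA-Seq 1 and 0.67 ± 0.30 within RNA-Seq 2. All 7 KIX libraries lay above the WT mean of their own experiment.

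Ifi27l2a lay at 0.334, 0.222 and 0.338 CPM in WT MWM mice and at 0.566, 1.87 and 0.383 CPM in KIX MWM mice. In CFC mice it lay at 0.273, 0.749, 0.566 and 0.394 CPM in WT and at 0.595, 0.455, 0.78 and 1.63 CPM in KIX. In each KIX group 1 library stood well above the rest. The fitted log2 difference was 1.00 ± 0.22 (SE), or 2-fold, with 1.60 ± 0.55 within RNA-Seq 1 and 0.65 ± 0.44 within RNA-Seq 2, and it was 0.67 without KIX MWM replicate 2. In that library the summed level of 38 interferon-stimulated genes was 204 CPM against 137 and 116 CPM in the other KIX MWM libraries and 119 to 125 CPM in WT MWM libraries, and its choroid plexus markers summed to 2950 CPM. What these values contributed was not tested.

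H2-Q6, the other Qa-2 gene, had a log2 difference of 1.34 ± 0.35 (SE), numerically above that of H2-Q7, and did not pass (adjusted p = 0.0574). It lay at 0.255, 0.13 and 0.278 CPM in WT MWM mice and at 2.05, 1.16 and 0.73 CPM in KIX MWM mice, with no overlap. In CFC mice it lay at 0.818, 0.83, 1.7 and 1.18 CPM in WT and at 0.762, 2.3, 0.78 and 3.32 CPM in KIX, where 2 KIX libraries lay below all WT libraries and 2 above them. Within RNA-Seq 1 the log2 difference was 2.58 ± 0.44 (SE, adjusted p = 0.281) and within RNA-Seq 2 it was 0.68 ± 0.47 (adjusted p = 1). Within the experiments 0.0141% and 0.0057% of genes passed, and the difference between the experiments was not tested. Groups with KIX entirely above WT after MWM training occurred for 7.97% of genes and, among the members not chosen from this contrast, for H2-Q6. H2-Q7 and Ifi27l2a also lay apart in this way, but they were chosen from these libraries. Part of the counts of H2-Q6 and H2-Q7 may be exchanged, so the gap of H2-Q6 may not be independent of that choice. KIX lay entirely below WT for 9.22% of genes and 0 members. After CFC the groups were apart for 0 members and for 1.11% (KIX above) and 1.23% (KIX below) of genes.

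The classical chains and B2m differed by less. H2-K1 had a log2 difference of 0.23 ± 0.06 (SE) and an adjusted p of 0.0502, just outside the threshold, with 33.1, 33.9 and 24.1 CPM in KIX MWM mice against 25.7, 22.2 and 25.5 CPM in WT, and 20.6, 27.1, 25.8 and 32 CPM in KIX CFC mice against 19.8, 25.9, 24.7 and 22.6 CPM in WT. H2-D1 had a log2 difference of 0.14 ± 0.06 (SE, adjusted p = 0.264), with 33.3 to 53.2 CPM in KIX MWM mice against 35.6 to 37.4 CPM in WT and 27.2 to 38.1 CPM in KIX CFC mice against 28.4 to 34.3 CPM in WT. B2m lay at 37.9, 42.9 and 28.7 CPM in KIX MWM mice against 29, 28.1 and 30 CPM in WT, and at 51.3, 62.1, 53.1 and 61.9 CPM in KIX CFC mice against 51.9, 55.1, 53.4 and 55.6 CPM in WT. The B2m groups overlapped in both tasks, and 4 of the 7 KIX libraries lay above the WT mean of their experiment. The call was lost with GC-content normalization (adjusted p = 0.137, with 159 genes passing in all), with 2 factors (adjusted p = 0.148), without a filter on low counts (adjusted p = 0.0877) and with all 24 libraries in 1 fit (adjusted p = 0.623). It was also lost in 9 of 14 fits that each left out 1 library, and held without KIX MWM replicate 3, WT CFC replicates 2 or 4, or KIX CFC replicates 1 or 3. Without KIX MWM replicate 2 the log2 difference of B2m was 0.12 (adjusted p = 0.249).

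H2-T22 was lower in all 7 KIX libraries than the WT mean of their experiment. It lay at 12.3, 10.9 and 12.5 CPM in KIX MWM mice against 14.4, 11.7 and 13.3 CPM in WT, and at 12.9, 14.2, 13.7 and 14.9 CPM in KIX CFC mice against 15.7, 16.6, 14.7 and 16 CPM in WT. Its log2 difference of -0.16 ± 0.05 (SE) did not pass (adjusted p = 0.133). H2-Q4 had a log2 difference of 0.41 ± 0.12 (SE, adjusted p = 0.0963), with 2.75, 2.17 and 1.48 CPM in KIX MWM mice against 1.22, 1.85 and 1.39 CPM in WT, and 2.83, 4.16, 3.07 and 4.8 CPM in KIX CFC mice against 2.49, 3.1, 3.18 and 3.01 CPM in WT. H2-T23 (-0.03 ± 0.07, SE, adjusted p = 0.871) and Ifi27 (0.09 ± 0.05, SE, adjusted p = 0.378) showed small differences with overlapping groups in both tasks. Without the 4 factors 0.0186% of genes passed and no member did, B2m having the same direction with an adjusted p of 0.534.

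Learning in WT mice compares 7 trained with 6 homecage WT libraries of both experiments, with the experiment and 3 RUVr factors, and shares the trained WT libraries with the contrast above and 3 homecage libraries with the one before, so that values of these comparisons stand side by side and no likeness between them is read. Here 0.794% of the 22038 genes tested passed, 0.327% higher and 0.467% lower after learning. H2-Q4 passed and fell by 0.66 ± 0.12 on the log2 scale (SE, adjusted p = 0.0284), to 0.632 of its homecage level. Of the 10 members 8 had a negative log2 difference, as had 12722 of all 22038 genes tested. The median of the members was -0.24 against -0.03 over all genes. H2-Q7 and Ifi27l2a are among the 8, and the trained WT libraries had a part in choosing them.

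H2-Q4 lay at 2.99, 2.82 and 2.29 CPM in WT homecage mice and at 1.22, 1.85 and 1.39 CPM in WT MWM mice of RNA-Seq 1, where the groups did not overlap. In RNA-Seq 2 it lay at 4.01, 5.31 and 2.56 CPM in homecage mice and at 2.49, 3.1, 3.18 and 3.01 CPM in CFC mice, where they did. All 7 trained libraries were below the homecage mean of their experiment, with a log2 difference of -0.85 ± 0.22 (SE) within RNA-Seq 1 and -0.47 ± 0.21 within RNA-Seq 2. Neither passed on its own (adjusted p = 0.379 and adjusted p = 1), where 0.0139% and 0.116% of genes passed. Without the factors 0.0408% of genes passed and the adjusted p of H2-Q4 was 0.536. It was 0.106 with GC-content normalization, where 41 genes passed in all, 0.0509 with 2 factors and 0.429 with all 24 libraries in 1 fit. The call was also lost in 7 of 13 fits that each left out 1 library, namely homecage replicates 1 or 2 or MWM replicates 1 or 3 of RNA-Seq 1, or homecage replicate 1 or CFC replicates 2 or 4 of RNA-Seq 2, with log2 differences between -0.79 and -0.57 over all 13.

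H2-Q7 lay at 0.634, 0.541 and 0.608 CPM in WT homecage mice of RNA-Seq 1, above all 3 WT MWM libraries. Its log2 difference was -1.30 ± 0.24 (SE), with -1.71 ± 0.37 within RNA-Seq 1 and -0.98 ± 0.44 within RNA-Seq 2, and all 7 trained libraries lay below the homecage mean of their experiment. Without WT homecage replicate 2 of RNA-Seq 2 the log2 difference was -1.12 and 6 of the 7 lay below it. The mean level of H2-Q7 in RNA-Seq 1 was 0.709 ± 0.259 CPM (SD, n = 3) in KIX MWM, 0.594 ± 0.0478 (SD, n = 3) in WT homecage and 0.18 ± 0.0227 (SD, n = 3) in WT MWM mice. The libraries of the first 2 groups overlapped. The WT MWM libraries, which had a part in choosing H2-Q7, lay below both. In RNA-Seq 2 the means were 1.38 ± 0.349 (SD, n = 4) in KIX homecage, 1.36 ± 0.935 (SD, n = 3) in WT homecage, 1.16 ± 0.344 (SD, n = 4) in KIX CFC and 0.735 ± 0.235 (SD, n = 4) in WT CFC mice, and each group overlapped its neighbour in this order.

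Ifi27l2a lay at 0.754, 0.37 and 0.465 CPM in WT homecage mice of RNA-Seq 1, above all WT MWM libraries, with a log2 difference over both experiments of -0.56 ± 0.21 (SE), which was -0.44 without WT homecage replicate 2 of RNA-Seq 2. Its group means in RNA-Seq 1 ran from 0.941 ± 0.813 CPM (SD, n = 3) in KIX MWM through 0.53 ± 0.2 (SD, n = 3) in WT homecage to 0.298 ± 0.0655 (SD, n = 3) in WT MWM mice. In RNA-Seq 2 they ran from 1.04 ± 0.331 CPM (SD, n = 4) in KIX homecage through 0.866 ± 0.529 (SD, n = 4) in KIX CFC and 0.63 ± 0.229 (SD, n = 3) in WT homecage to 0.496 ± 0.208 (SD, n = 4) in WT CFC mice. The KIX mean lay above the WT mean after MWM training and after CFC, but Ifi27l2a was chosen from these libraries, so this order is a description. It also did so in the homecage, where the difference did not pass the test. Neighbouring groups overlapped except WT homecage and WT MWM in RNA-Seq 1.

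The classical chains and B2m had smaller differences of the same sign, each with 7 of 7 trained libraries below the homecage mean of their experiment. The log2 difference was -0.25 ± 0.07 (SE, adjusted p = 0.0991) for H2-K1, -0.23 ± 0.06 (adjusted p = 0.0755) for H2-D1 and -0.19 ± 0.05 (adjusted p = 0.103) for B2m. In RNA-Seq 1, H2-K1 lay at 29.4 to 33.5 CPM in homecage and 22.2 to 25.7 CPM in MWM mice, H2-D1 at 39.1 to 57 CPM and 35.6 to 37.4 CPM, and B2m at 28.8 to 38.4 CPM and 28.1 to 30 CPM. H2-Q6 had a log2 difference of -0.69 ± 0.32 (SE, adjusted p = 0.296). Without WT homecage replicate 2 of RNA-Seq 2 the log2 difference was -0.33 for H2-Q6 (adjusted p = 0.632), -0.15 for H2-K1 (adjusted p = 0.209), -0.16 for H2-D1 (adjusted p = 0.103), -0.15 for B2m (adjusted p = 0.15) and -0.58 for H2-Q4 (adjusted p = 0.0489). It was 0.09 for H2-T22, -0.0029 for H2-T23 and 0.11 for Ifi27. Without that library 4 of 7 trained libraries lay below the homecage mean for H2-K1, 6 for H2-D1, 5 for H2-Q6, 7 for H2-Q4 and 7 for B2m. H2-T22 (0.05 ± 0.06, SE, adjusted p = 0.718), H2-T23 (-0.08 ± 0.09, adjusted p = 0.672) and Ifi27 (0.05 ± 0.07, adjusted p = 0.772) showed no difference beyond their error. MWM libraries lay entirely below homecage libraries in RNA-Seq 1 for 7 of the members (H2-K1, H2-D1, H2-Q4, H2-Q6, H2-Q7, H2-T23 and Ifi27l2a) and for 9.49% of all genes. Of these 7, H2-Q7 and Ifi27l2a were chosen partly from the same WT MWM libraries, so their separation is a description. CFC libraries lay entirely below homecage libraries in RNA-Seq 2 for 0 members and 2.41% of genes. Libraries after training lay entirely above homecage libraries for 0 members and for 3.96% of genes in RNA-Seq 1 and 2.57% in RNA-Seq 2. Of all genes, 6.24% were higher after learning by the unadjusted p, and 0 members were.

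Same-numbered homecage and trained libraries deviated together in this comparison, so the fit with the replicate number as a block is given beside it. With the block and 3 factors H2-Q4 (adjusted p = 0.0318), H2-D1 (adjusted p = 0.0227), B2m (adjusted p = 0.0326) and H2-K1 (adjusted p = 0.0489) passed, all lower after learning. In all, 992 of the 22038 genes passed, against 175 without the block. The block and the factors together left few residual degrees of freedom, and the factors came from the same residuals, so these calls are a description. With the block and no factor, 12 genes and no member passed. Endothelial markers, which label cells known for class I expression, had negative values in the same contrast for 10 of 10 genes, as had 12722 of all 22038 genes tested. Of the 10 endothelial markers 1 passed (Cldn5, a tight junction protein, with a log2 difference of -0.49 ± 0.09, SE, adjusted p = 0.0334, and 0.197 with GC-content normalization) and their median was -0.12. Their summed level was 239 to 271 CPM in WT homecage and 178 to 207 CPM in WT MWM mice of RNA-Seq 1, and 223 to 283 CPM and 222 to 248 CPM in homecage and CFC mice of RNA-Seq 2, with no marker at 0 in any library. In KIX MWM mice it was 155 to 197 CPM. Negative values in this contrast also held for 5 of 5 perivascular macrophage markers (median -0.21) and 5 of 5 blood cell markers (-0.20). They held for 9 of 11 microglia markers (-0.05), while 8 of 8 choroid plexus and 4 of 5 astrocyte markers were positive. The part of any of these cells in the result was not tested.

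**Figure D4:**
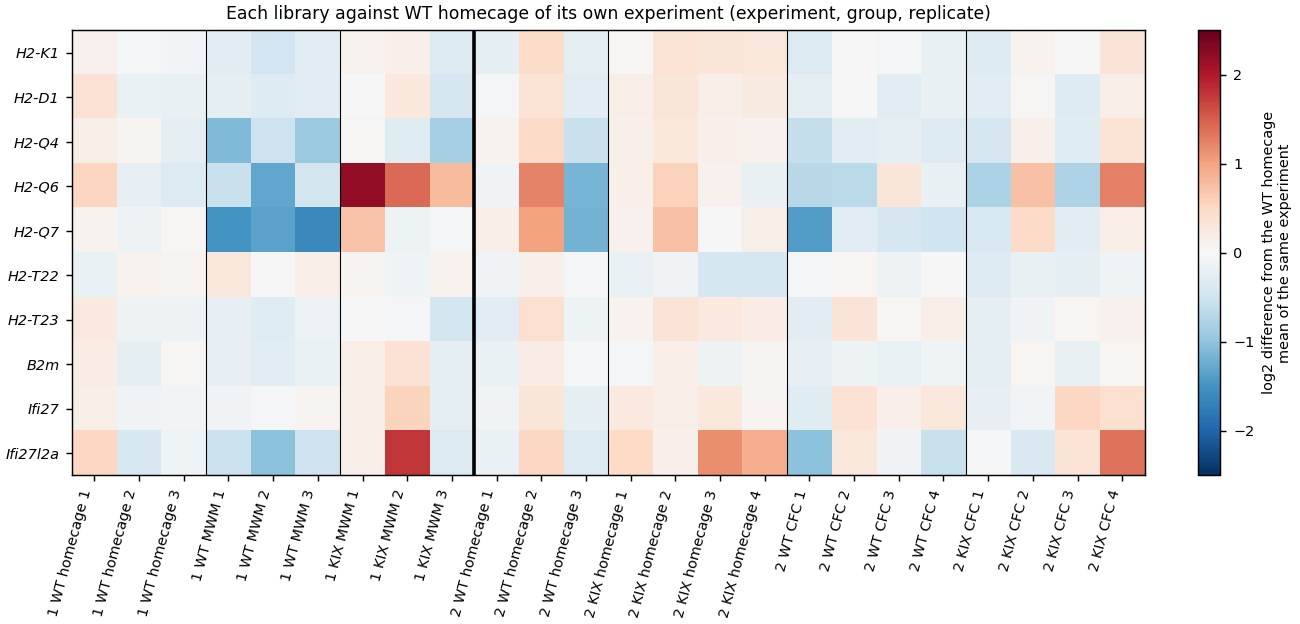
Log2 level of each gene (rows) in each of the 24 libraries (columns, by experiment, group and replicate), relative to the mean of WT homecage libraries of the same experiment. Red is higher and blue lower. The 3 WT MWM columns are blue for H2-Q7, KIX MWM replicate 2 is red for Ifi27l2a, and WT homecage replicate 2 of RNA-Seq 2 is above 0 for all 10 genes.

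Fear conditioning in KIX mice, 4 against 4 libraries of RNA-Seq 2, was fitted without factors. No member passed, beside 0.0113% of the 17717 genes tested. H2-D1 had a log2 difference of -0.31 ± 0.11 (SE, adjusted p = 0.491) and H2-T23 one of -0.26 ± 0.11 (adjusted p = 0.511), each with 4 of 4 KIX CFC libraries below the KIX homecage mean. These were the members tested with an unadjusted p under 0.05, which 9.43% of genes had, 5.23% lower and 4.2% higher. H2-K1 (-0.20 ± 0.13, adjusted p = 0.622), H2-Q4 (-0.20 ± 0.17, adjusted p = 0.729), B2m (-0.10 ± 0.09, adjusted p = 0.728), H2-Q6 (0.15 ± 0.44, adjusted p = 0.937), H2-T22 (0.05 ± 0.10, adjusted p = 0.908) and Ifi27 (0.00 ± 0.15, adjusted p = 0.999) followed with smaller or less certain values. H2-Q7 differed by -0.26 ± 0.26 and Ifi27l2a by -0.29 ± 0.41 (SE), both with overlapping groups. No member had groups that were apart, which occurred for 2.23% (higher after CFC) and 2.22% (lower) of genes. The block by replicate number, for which same-numbered libraries also deviated together, changed no call among the members.

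Whether the genotype difference itself changed between homecage and CFC was asked by an interaction in RNA-Seq 2. No gene of 18851 passed (0%, with 1 by DESeq2 and 903 or 4.79% at an unadjusted p under 0.05, 2.31% higher and 2.48% lower), and none of the 8 members tested had an unadjusted p under 0.05. For H2-Q6 the difference between genotypes was larger after CFC by 0.88 ± 0.72 (SE, log2, 95% interval -0.65 to 2.42, adjusted p = 0.954). For H2-Q7 the value was 0.72 ± 0.54 (SE) and for Ifi27l2a 0.07 ± 0.59, given without a test. Without WT homecage replicate 2 the value was 0.0035 for H2-Q6, 0.10 for H2-Q7 and -0.31 for Ifi27l2a.

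The other genes of the pathway were read from lists. Of 17 genes of peptide processing and loading, all were tested and none passed in homecage mice or in learning in WT, with medians of -0.07 and -0.04. The lowest p values in learning in WT belonged to Tap1, a subunit of the peptide transporter (log2 difference -0.31 ± 0.08, SE, adjusted p = 0.094), Nlrc5, the transactivator of class I genes (-0.61 ± 0.17, adjusted p = 0.103) and Tapbp, which joins class I to the transporter (-0.12 ± 0.05, adjusted p = 0.187). In homecage mice they belonged to Rfx5, a factor of the X box (-0.20 ± 0.10, adjusted p = 0.798), Tap2 (-0.14 ± 0.10, adjusted p = 0.848) and Tap1 (-0.14 ± 0.15, adjusted p = 0.91). After learning, 1 of the 17 was higher in KIX mice past the threshold, Nlrc5, with a log2 difference of 0.67 ± 0.16 (SE, adjusted p = 0.0393) and 7 of 7 KIX libraries above the WT mean of their experiment, while the median was 0.05.

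Of 38 other interferon-stimulated genes, 35 were tested. None passed in homecage mice, where the median log2 difference was 0.28 and the lowest p values belonged to Bst2, an antiviral tether (0.72 ± 0.28, SE, adjusted p = 0.798), Irf7, a transcription factor of the response (0.46 ± 0.20, adjusted p = 0.798) and Ifi44 (1.03 ± 0.46, adjusted p = 0.798), each higher in 4 of 4 KIX libraries than the WT mean. After learning 3 of the 35 were higher in KIX mice past the threshold and 0 lower: Ifi44 (1.41 ± 0.26, SE, adjusted p = 0.011), Rsad2, which encodes viperin (0.75 ± 0.12, adjusted p = 0.00658), and Irf7 (0.50 ± 0.12, adjusted p = 0.0429), each with 7 of 7 KIX libraries above the WT mean of their experiment. In the same contrast 17 were higher at an unadjusted p under 0.05, beside 8.32% of all genes. The summed level of the list overlapped between genotypes in both tasks. It was 116 to 204 CPM in KIX MWM mice, the highest in replicate 2, against 119 to 125 CPM in WT. After CFC it was 177 to 213 CPM in KIX against 171 to 196 CPM in WT mice. Ifi27l2a, which was chosen from this contrast, varied with this list across libraries (r = 0.85), so these counts are not independent of that choice. In learning in WT none passed and 7 were lower at an unadjusted p under 0.05, beside 10.6% of all genes, led by Irf7 (-0.43 ± 0.11, SE, adjusted p = 0.0894), Rsad2 (-0.55 ± 0.16, adjusted p = 0.11) and Oasl2 (-0.43 ± 0.13, adjusted p = 0.112). In KIX mice after CFC none of the 34 tested passed. Of the 15 interferon receptors and signalling genes 0 passed in homecage mice and in learning in WT, and 1 was lower in KIX mice after learning, Irf8, a transcription factor of myeloid cells and microglia (-0.40 ± 0.10, SE, adjusted p = 0.0396). The genes named for passing after learning (Nlrc5, Ifi44, Rsad2, Irf7 and Irf8) were picked out after their values were seen. With GC-content normalization the adjusted p was 0.0226 for Ifi44, 0.015 for Rsad2, 0.138 for Irf7, 0.0717 for Nlrc5 and 0.0899 for Irf8, and without factors none of these passed (adjusted p between 0.0958 and 0.372). In learning in WT, Socs3, an inhibitor of cytokine signalling, had the lowest p of these (-0.44 ± 0.11, SE, adjusted p = 0.0763).

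Of 20 other class I or class I-like heavy chains on the list, 17 were found by symbol, and 12 were tested in homecage mice. None passed in any of the 5 comparisons. The lowest p values in homecage mice belonged to Cd1d1, which presents lipids (2.08 ± 0.59, SE, adjusted p = 0.786), H2-M5 (-0.60 ± 0.22, adjusted p = 0.788) and H2-Q2 (-1.32 ± 0.55, adjusted p = 0.798). In learning in WT they belonged to H2-T24 (-0.25 ± 0.10, adjusted p = 0.203), H2-Q1 (-1.69 ± 0.79, adjusted p = 0.294) and Fcgrt, the neonatal Fc receptor (-0.12 ± 0.08, adjusted p = 0.493). None of the 7 class II genes passed in any comparison, with a median of -0.19 in homecage mice and -0.18 in learning in WT.

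Markers of other cells gave few calls. None of the 11 microglia, 5 perivascular macrophage, 6 leptomeningeal fibroblast, 8 choroid plexus, 5 blood cell, 5 oligodendrocyte or 7 neuron markers passed in any comparison, and 2 of 5 astrocyte markers were lower in KIX mice after learning, Gfap (-0.29 ± 0.04, SE, adjusted p = 0.0029) and Aldh1l1 (-0.26 ± 0.04, adjusted p = 0.00589), both named after their values were seen, with adjusted p of 0.0115 and 0.0105 with GC-content normalization and of 0.146 and 0.119 without factors. The other 3 astrocyte markers were nominally higher in KIX mice after learning, 1 of them at an unadjusted p under 0.05. The median of the 5 was 0.04. In homecage mice Gfap had a difference of the other sign (1.32 ± 0.42, adjusted p = 0.786), and the summed astrocyte level reached 2300 CPM in KIX homecage replicate 4. Wfs1, a marker of CA1 pyramidal neurons, was lower in 4 of 4 KIX homecage libraries (-0.41 ± 0.06, SE, adjusted p = 0.189). Of the 7 neuron markers in homecage mice 4 were negative and 3 positive, with 1 in each direction at an unadjusted p under 0.05. All 8 choroid plexus markers were higher in learning in WT at an unadjusted p under 0.05, with a median log2 difference of 1.58 and the lowest p for Aqp1, a water channel (1.74 ± 0.39, SE, adjusted p = 0.056, with 4 of 7 trained libraries above the homecage mean), Folr1, a folate carrier (1.50 ± 0.34, adjusted p = 0.0595) and Otx2, a transcription factor (1.18 ± 0.29, adjusted p = 0.0694). In homecage mice the lowest p values among microglia markers included those of the complement genes C1qa (0.23 ± 0.08, adjusted p = 0.786) and C1qb (0.21 ± 0.09, adjusted p = 0.798). Over the 11 microglia markers 7 were positive and 4 negative there, with a median of 0.0055. Of 8 T and NK cell markers 3 were tested in homecage mice, and Cd3e, Cd3d, Cd3g, Cd8a and Nkg7 were at 0 in some libraries.

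Within groups, most of the members varied together across libraries. After each library's log2 level was set against its group mean, Pearson's r over the 24 libraries was 0.89 between H2-K1 and H2-T23, 0.84 between H2-D1 and B2m, 0.78 between H2-K1 and H2-D1, and 0.78 between Ifi27 and Ifi27l2a. H2-Q7 was closest to H2-Q4 (r = 0.79, Spearman's rho = 0.82) and to H2-Q6 (r = 0.74), and far from Ifi27l2a (r = 0.15). H2-T22 was the member least like the rest, with r between -0.21 and 0.35. These correlations describe libraries that share batch, depth and tissue makeup, and no p is given.

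**Figure D5:**
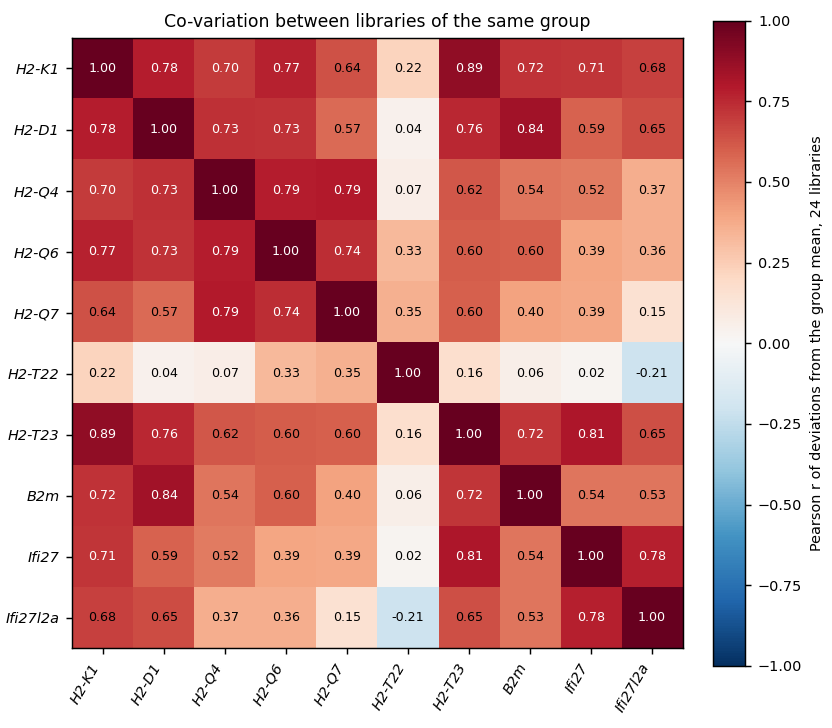
Pearson's r between the 10 genes over the 24 libraries, computed on log2 CPM after subtracting the group mean, with the value printed in each cell. H2-K1 and H2-T23 have the highest value (0.89) and the row of H2-T22 the lowest values, from -0.21 to 0.35.

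Over the 22407 other genes that passed the filter on low counts, the 5 most like H2-Q7 were Hs3st6 (r = 0.87), Wnt6 (0.83), Slc6a13 (0.80), Pear1 (0.79) and H2-Q4 (0.79). The 5 most like Ifi27l2a were Lgals3bp (r = 0.90), Gprc5c (0.85), Bst2 (0.82), Loxl2 (0.82) and Upb1 (0.82). Some of these partners had few reads, with mean levels of 0.19 CPM for Hs3st6, 0.429 for Wnt6, 0.231 for Upb1 and 0.66 for Loxl2. The other named partners of these 2 genes had mean levels of 3.1 to 17.6 CPM. Lgals3bp and Bst2 are interferon-inducible genes on the list used above. The 5 most like H2-K1 were H2-T23 (r = 0.89), Fbln5 (0.88), Icam1 (0.87), Vstm4 (0.86) and Mrc1 (0.86). Mrc1 is a perivascular macrophage marker and Slc6a13 a leptomeningeal fibroblast marker of the lists. Against the summed level of each list, H2-K1 had r = 0.84 with class II genes, 0.82 with perivascular macrophage markers, 0.75 with endothelial markers and -0.14 with neuron markers. Ifi27l2a had r = 0.85 with interferon-stimulated genes and 0.67 with choroid plexus markers. H2-Q7 had r = 0.61 with class II genes, 0.60 with endothelial markers and 0.15 with interferon-stimulated genes. H2-T22 was closest to microglia markers (0.62). Spearman's rho of H2-Q7 was lower with class II genes, 0.41, and was 0.61 with endothelial markers. For H2-K1 rho was 0.78 with class II genes, 0.70 with perivascular macrophage markers and 0.69 with endothelial markers. For Ifi27l2a rho was 0.83 with interferon-stimulated genes and 0.72 with choroid plexus markers. WT homecage replicate 2 of RNA-Seq 2 is among these libraries, and its part was not tested.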

How the data were processed

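RNA from mouse dorsal hippocampus was sequenced in 24 libraries of 7 groups in 2 experiments. The authors ran bcbio with alignment to the mouse genome (mm10, GRCm38) and deposited raw read counts per gene for each library; the submitters' processing notes name STAR, SAMtools 1.6 and featureCounts 1.4.4, and how featureCounts treated strand and multiply mapped reads is not given in the sources used here. Of the 51826 Ensembl identifiers, 51633 were matched to GENCODE M21 symbols and 193 were not.

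Counts were filtered (filterByExpr), scaled by the upper quartile and tested with the quasi-likelihood test of edgeR 4.0.16 in R 4.3.3, with Benjamini-Hochberg adjustment over all genes tested. Standard errors were derived from the F statistic. The study's GC-content normalization (EDASeq) was an alternative and not part of the fits reported. RUVr was re-implemented from deviance residuals, with 4 factors for the genotype after learning and 3 for learning in WT; factors estimated from the same residuals can make p-values smaller. All 10 members passed the filter in every comparison. The 7 groups came from the labels, which number replicates but do not say that every library is a separate mouse, so p-values measure the spread between these samples. Duplicate libraries were looked for and not found.

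The members and gene lists were chosen with earlier results of these data known. Named genes are the 10 members, the 3 genes of each other list with the lowest p in the homecage and in learning in WT, and the 5 genes most correlated with H2-Q7, Ifi27l2a and H2-K1. One result that this rule would name is not reported here. Same-numbered libraries correlated by over 0.1 in every pair for WT homecage against MWM (0.10 to 0.18), WT homecage against CFC (0.19 to 0.38) and KIX homecage against CFC (0.15 to 0.25), judged from the data and not from a stated shared batch. Alternatives were TMM, DESeq2 1.42.0, no filter, GC-content normalization, other numbers of factors, all 24 libraries in 1 fit, each experiment alone, the replicate block and leaving out each library. The fits for genotype in the homecage and after learning were also run on simulated counts with known changes. These counts held no unwanted variation, so they cannot show how the factors affect the calls.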

Additional observations from a re-analysis of the deposited data

Results flagged for a closer look

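Of 30 groups of 4 libraries, 2 had a library far from the other 3 by Dixon's test at the 95% level, where chance gives about 1 in 20. Both were KIX homecage replicate 2. H2-Q4 lay at 4.58 CPM against 4.09 to 4.16 CPM in the others (gap over range 0.846), and H2-Q7 lay at 1.9 CPM against 1.14 to 1.25 CPM (0.859). Without this library the genotype difference of H2-T22 in the homecage was -0.34 on the log2 scale, and the H2-Q7 difference between CFC and homecage in KIX mice was -0.04.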

How the results depend on the processing

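H2-Q7 and Ifi27l2a are counted in no call outside the homecage. Over the members tested, 273 values kept their direction and side of the threshold under the alternatives other than leaving out a library, 12 passed newly, 15 no longer passed and 12 changed sign; the causes were not tested.

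Genes past the threshold in the homecage (2) numbered 57 with DESeq2, 10 without a filter and 0 with the replicate block. After learning (520, with 1 member) they numbered 875 with DESeq2 (2 members, as with TMM), 2877 with the replicate block and RUVr factors (6 members), 253 without a filter, 131 with 2 factors, 159 with GC-content normalization, 5 with all 24 libraries, 4 without factors, 8 with the replicate block without factors, 3 within RNA-Seq 1 and 1 within RNA-Seq 2, with 0 members in the last 8. For learning in WT (175, with 1 member) they numbered 759 with DESeq2 (532 higher, 227 lower, against 72 and 103, with 2 members), 84 without a filter (52 and 32), 992 with the replicate block and RUVr factors (4 members), 98 with 2 factors (52 and 46), 41 with GC-content normalization (33 and 8), 2 with all 24 libraries, 9 without factors, 12 with the replicate block without factors, 3 within RNA-Seq 1 and 21 within RNA-Seq 2, with 0 members in the last 7; with TMM the split was 76 higher and 43 lower. For CFC in KIX (2) they numbered 46 with DESeq2 and 28 with all 24 libraries, and for the interaction (0) 1 with DESeq2. The replicate block changed no other call in the homecage, CFC in KIX and the interaction among the members. Where the block was fitted with RUVr factors, few residual degrees of freedom were left, so those counts are a description.

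Leaving out each library gave 0 to 7 genes in the homecage, 201 to 881 after learning (0 to 3 members), 29 to 2415 for learning in WT (0 to 3 members), 0 to 155 for CFC in KIX and 0 to 63 for the interaction.

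Signs changed in the homecage for H2-Q6 (0.0446) and H2-Q7 (0.0714) with the replicate block and H2-Q7 (0.0205) with GC-content normalization. After learning H2-T23 became 0.0803 within RNA-Seq 1 and 0.0062 with GC-content normalization. For learning in WT, Ifi27 became -0.0117 within RNA-Seq 1, and H2-T22 became -0.0419 and H2-T23 0.0301 within RNA-Seq 2. For CFC in KIX, Ifi27 became -0.0081 with TMM, -0.0204 without a filter and -0.0284 with the replicate block, which gave -0.0132 for H2-Q6. Leaving out a library changed signs over these ranges: in the homecage H2-Q4 -0.13 to 0.35, H2-Q6 -0.53 to 0.68, H2-Q7 -0.36 to 0.58 and B2m -0.066 to 0.12; after learning H2-T23 -0.081 to 0.0314; for learning in WT Ifi27 -0.0048 to 0.11; for CFC in KIX H2-Q6 -0.26 to 0.43, H2-T22 -0.0036 to 0.12 and Ifi27 -0.12 to 0.12; for the interaction H2-K1 -0.29 to 0.11, H2-D1 -0.30 to 0.0237, H2-Q4 -0.0079 to 0.47, B2m -0.0358 to 0.15, Ifi27 -0.29 to 2e-04 and Ifi27l2a -0.39 to 0.41. Low counts limit H2-Q6, H2-Q7 and Ifi27l2a, whose lowest libraries held 7, 8 and 8 reads.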
